A study of Nothobranchius furzeri with 8 samples.

Results

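The nuclear tRNAs that seryl-tRNA synthetase charges were followed in brains of the turquoise killifish, a fish used in aging research for its brief life span. They were taken by name, as every nuclear tRNA annotated as serine or selenocysteine, and comprised 5 of the 49 nuclear anticodons measured, or 8 of the 66 nuclear transcripts. The serine tRNAs were tRNA-Ser-AGA (6 genes), tRNA-Ser-CGA (3 genes), tRNA-Ser-GCT (6 genes) and tRNA-Ser-TGA (2 genes), which the tables list as 7 transcripts, and the remaining member was tRNA-SeC-TCA, with 1 gene and 1 transcript. The methods and the column headers give different similarity limits for merging near-identical transcripts, so which transcripts count as separate follows the tables. Gene numbers are those of the predicted tRNA genes used as the reference and were not counted in these fish. Anticodons are written in DNA letters.

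tRNA-seq was performed on 4 old fish at 39 weeks post-hatching (wph) and on 4 young fish at 5 wph, each group holding 2 males and 2 females, to ask whether the amount and the charging of tRNAs change with brain aging. Each library came from the brain of a separate fish, the methods give MZM-0410 as the usual strain, and the labels name no treatment or allele, so the groups differ in age alone as far as these sources tell. The 2 males of an age are called M1 and M2 below and the 2 females F1 and F2. RNA was kept under mildly acidic conditions, oxidized and put through β-elimination, which takes the last base from a tRNA without an amino acid. A charged tRNA is then read with the tail CCA and an uncharged one with CC, and the charged share is CCA over CCA plus CC.

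Seryl-tRNA synthetase puts serine on all of these tRNAs. It recognizes mainly their long variable arm and not the anticodon, and leucine tRNAs, which have a synthetase of their own, are the other nuclear tRNAs with a long variable arm. On tRNA-Ser the serine goes directly to the ribosome, where tRNA-Ser-AGA, -CGA and -TGA read the UCN codons and tRNA-Ser-GCT reads AGC and AGU. On tRNA-SeC the serine is first phosphorylated and then converted to selenocysteine, which is inserted at particular UGA codons of selenoprotein mRNAs such as those of the glutathione peroxidases. The assay reads whether an amino acid is present and not which one, so the charged share of tRNA-SeC-TCA covers its serine, phosphorylated serine and selenocysteine forms alike.

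The libraries held 717858 to 3112101 reads. Among these were 49110 to 201624 serine reads and 1492 to 6624 selenocysteine reads, and the charged shares rested on at least 46398 serine and 1314 selenocysteine reads per brain. The 95% Wilson interval of the charged share was at most 0.454 points either side for the serine tRNAs together and at most 2.68 points for tRNA-SeC-TCA, a counting error only, since PCR reads are not independent molecules. Among the old brains, the charged share of the other 44 nuclear anticodons spread from 44.4% in F1 to 65.8% in F2. Old M1 and M2 lay between, at 53.2% and 56.8%, and the young brains were at 61.1% to 70.3%. Old F2 was thus the only old brain inside the young range. The synthetic spike-in, mixed with CCA and CC ends at 3 to 1, read 77.6% to 80.3% CCA in old and 76.8% to 77.6% in young brains. By the methods it was added after oxidation and β-elimination, so it does not check those steps.

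The serine tRNAs together were charged to 35.9%, 54.3%, 36.9% and 39.2% in the old M1, M2, F1 and F2 brains, against 67.5%, 47.7%, 55.3% and 43.2% in the young brains in the same order. The M1, F1 and F2 values of old brains lay below every young value, and old M2 lay above the young M2 and F2 brains, so that the ages overlapped. The means were 41.6 ± 8.61% in old and 53.4 ± 10.6% in young brains (SD, n = 4 each). The difference of −11.9 points did not pass a two-sided exact permutation test (p = 0.143, smallest possible 0.0286), and leaving out single brains moved it between −16.1 points (without old M2) and −7.18 points (without young M1), with no call gained. In whole brains, fewer cells of a type and less charged tRNA per cell cannot be told apart.

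All 3 readers of the UCN codons had lower means in old brains. tRNA-Ser-AGA was charged to 31.9%, 48.6%, 31.8% and 36.2% in old M1, M2, F1 and F2, against 63.6%, 43.6%, 52.1% and 39.1% in the young brains. tRNA-Ser-CGA, the least charged of all 47 nuclear anticodons with enough reads in the mean of either age, gave 31.8%, 47.9%, 31.9% and 34.8% in old and 63.2%, 43.9%, 51.2% and 39.3% in young brains. In both, old M2 was the only old brain inside the young range. tRNA-Ser-TGA was charged to 38.1%, 58.6%, 40.1% and 40.0% in old brains, against 71.5%, 49.9%, 58.6% and 43.99% in young brains, with the same old brain inside the young range.

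tRNA-Ser-GCT, the reader of AGC and AGU, was charged to 40.2%, 59.5%, 42.3% and 42.7% in old and to 70.6%, 52.0%, 58.5% and 47.9% in young brains. Again old M2 was above all but 1 of the young brains while the other 3 old brains were below all of them. tRNA-SeC-TCA differed from the serine tRNAs in which old brain was highest. It was charged to 47.6%, 49.2%, 39.0% and 52.6% in the old brains and to 65.5%, 55.5%, 59.9% and 49.5% in the young brains. Its highest old brain was F2, as for the other nuclear tRNAs together (65.8%), and old F1, M1 and M2 lay below the young range. Its mean was 47.1 ± 5.79% in old brains and 57.6 ± 6.76% in young brains (SD, n = 4 each), which is −10.5 points apart (exact permutation p = 0.0571). Leaving out single brains moved this difference between −13.2 and −7.78 points (exact permutation p 0.0286 to 0.143). Only without young F2 did it reach the smallest possible p of 0.0286.

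**Figure D1:**
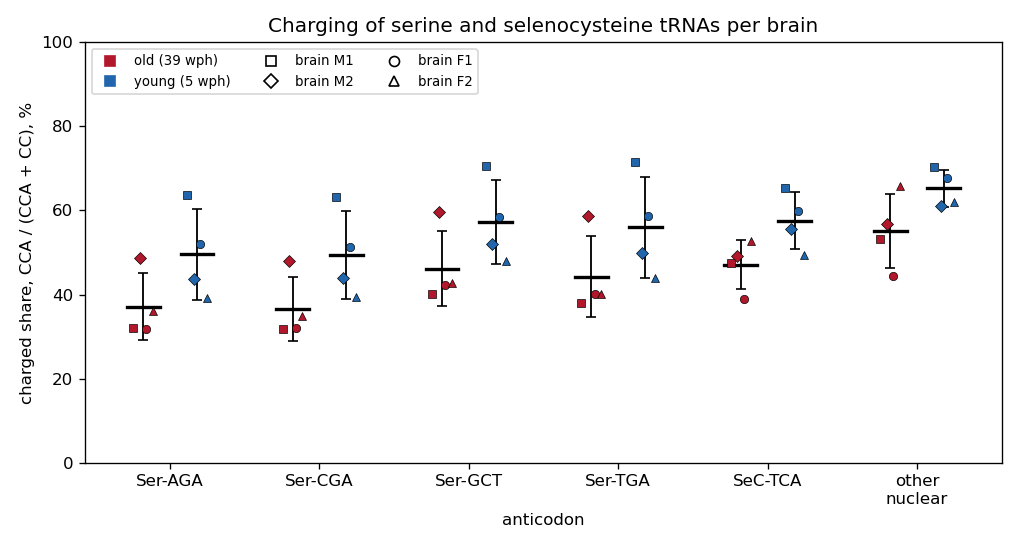
Charged share (CCA over CCA plus CC, in percent) of each serine and selenocysteine anticodon and of the other nuclear tRNAs summed, with 1 point per brain, old in red on the left of young in blue, and black bars for the mean and SD of 4 brains. Old M2 is the highest old brain for every serine anticodon (47.9% to 59.5%), and old F2 the highest for tRNA-SeC-TCA (52.6%).

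None of the 5 anticodons passed the edgeR quasi-likelihood test of charging, beside 2.13% of all 47 nuclear anticodons that did (1 called). All of their estimates were negative: the log2 odds of charging differed between old and young by −0.77 ± 0.38 (SE) for tRNA-Ser-CGA, −0.75 ± 0.37 for -AGA, −0.71 ± 0.39 for -TGA, −0.66 ± 0.37 for -GCT and −0.62 ± 0.28 for tRNA-SeC-TCA, with an edgeR adjusted p of 0.123 for each. Their median of −0.71 was near the median of −0.69 over all 47 anticodons. An unadjusted edgeR p below 0.05 was found for 3 of the 5, beside 18 of all 47. Limma called 0 of 5 as well (adjusted p 0.0871 to 0.123, 3 with an unadjusted p below 0.05), beside 1 called and 25 with an unadjusted p below 0.05 among all 47. The ages did not overlap in the charged share for 0 of the 5, against 2.13% of all 47. At the level of transcripts, 0 of 8 members passed the edgeR test (log2 differences of −0.77 to −0.61, adjusted p 0.124 to 0.137, 2 with an unadjusted p below 0.05), beside 1.52% of the 66 nuclear transcripts. Of these 66, 21 had an unadjusted p below 0.05.

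The count of calls turned on old F2. Whether that library was unusual for a technical reason was not tested, and the fits without it do not replace those with all 8 brains. Without that brain edgeR called 38 of 47 nuclear anticodons (80.9%), and among them tRNA-SeC-TCA (−0.73, adjusted p = 0.00623), tRNA-Ser-CGA (−0.74, 0.0170) and tRNA-Ser-AGA (−0.74, 0.0341). With 3 of 5 called, the members did not stand above that background. For transcripts without old F2, 4 of 8 members were called (tRNA-SeC-TCA-1, tRNA-Ser-AGA-1, -CGA-1 and -TGA-2), beside 78.8% of the 66 nuclear transcripts.

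Set against the other tRNAs of the same brain, the serine tRNAs had the lower charged share in every brain. The serine share minus that of the other 44 nuclear anticodons was −17.3, −2.42, −7.51 and −26.6 points in old M1, M2, F1 and F2, and −2.83, −13.4, −12.4 and −18.7 points in the young brains. The gap was thus widest in old F2, where the other nuclear tRNAs were highly charged and the serine tRNAs were not, and narrowest in old M2 and young M1. It averaged −12.6 ± 8.29 points (SD, n = 8) and was negative in 8 of 8 brains (exact sign-flip p = 0.00781, which no pattern of signs can go below). With reads ending in C or in no base of the tail added to the denominator, the gap was −7.85 points, negative in 6 of 8 brains, and no longer passed (exact sign-flip p = 0.0547).

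The selenocysteine tRNA was also below the other nuclear tRNAs in 8 of 8 brains, by −7.82 ± 3.24 points (SD, exact sign-flip p = 0.00781), and by −6.90 points in 8 of 8 with all end classes. Selenocysteine minus serine was 11.7, −5.16, 2.08 and 13.5 points in old M1, M2, F1 and F2 and −2.03, 7.77, 4.55 and 6.26 points in the young brains. The single-gene tRNA-SeC-TCA was therefore the more charged of the pair in 6 of 8 brains, the exceptions being old M2 and young M1, which had the most charged serine tRNAs of their age. The mean of 4.83 ± 6.40 points did not pass (SD, n = 8, exact sign-flip p = 0.0781), with 6.26 points without old M2 (exact sign-flip p = 0.0313) and 0.95 points, positive in 5 of 8 brains, with all end classes (exact sign-flip p = 0.695).

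**Figure D2:**
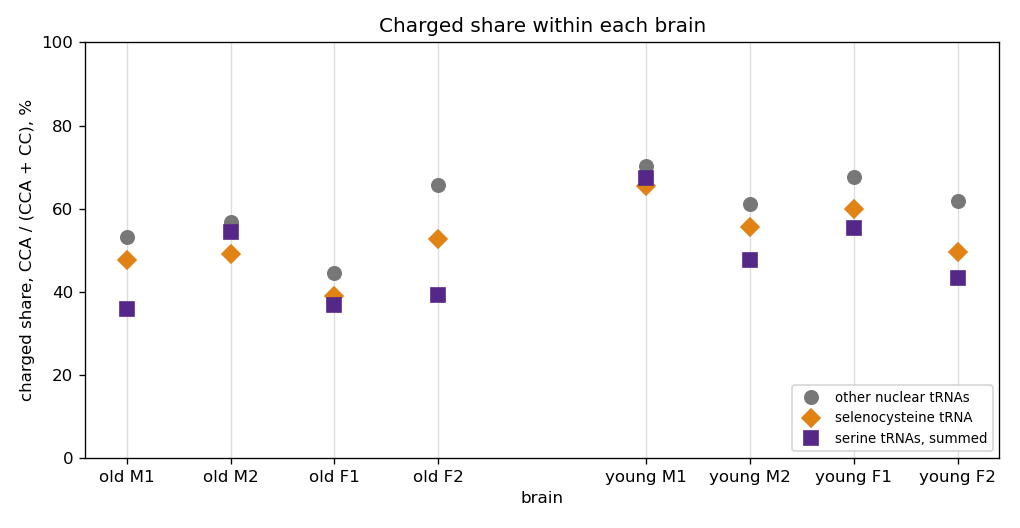
Charged share in percent of the serine tRNAs summed (purple squares), tRNA-SeC-TCA (orange diamonds) and the other nuclear tRNAs summed (grey circles) in each of the 4 old and 4 young brains. The serine tRNAs lie below the other nuclear tRNAs in all 8 brains, with differences of −2.42 points in old M2 and −26.6 points in old F2.

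Neither gap was shown to change with age. The gap between serine and the other nuclear tRNAs was −13.5 ± 10.7 points in old and −11.8 ± 6.599 points in young brains (SD, n = 4 each), or −1.63 in old minus young (exact permutation p = 0.83), and that between selenocysteine and serine was 5.52 ± 8.70 points in old and 4.14 ± 4.32 points in young brains, or 1.38 in old minus young (exact permutation p = 0.771). The sign of the first turned without old F2 (2.75 points) or young M1 (1.37), and that of the second without old M1 (−0.67), old F2 (−1.27) or young M1 (−0.67). By sex, the serine share differed between old and young by −12.5 points in males and −11.2 points in females, and that of tRNA-SeC-TCA by −12.1 and −8.88 points. A difference between the sexes in this was not shown by exact permutation (p = 1 and 0.833, smallest possible 0.0556).

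Leucine tRNAs, which share the long variable arm, were charged to 52.9 ± 9.80% in old and 63.5 ± 4.97% in young brains (SD, n = 4 each). The serine tRNAs were below them in 7 of 8 brains (mean −10.7 points, exact sign-flip p = 0.0156), with old M2 as the exception, and tRNA-SeC-TCA was below them in 8 of 8 (mean −5.82 points, exact sign-flip p = 0.00781). With all end classes these gaps were −5.04 points, negative in 5 of 8 brains (exact sign-flip p = 0.195), and −4.09 points, negative in 7 of 8 (exact sign-flip p = 0.0313). Mitochondria carry serine tRNAs of their own and a separate seryl-tRNA synthetase. Mitochondrial tRNA-Ser-GCT was charged to 61.2 ± 2.24% in old and 59.9 ± 6.96% in young brains, or 1.32 points in old minus young (exact permutation p = 0.714), and lay above the nuclear serine tRNAs in 8 of 8 brains (nuclear minus mitochondrial −13.0 points, exact sign-flip p = 0.00781), but with all end classes the gap was −6.77 points, negative in 5 of 8 (exact sign-flip p = 0.0859). The nuclear serine share minus the mitochondrial one was −19.6 ± 7.54 points in old and −6.44 ± 4.36 points in young brains (exact permutation p = 0.0857). Mitochondrial tRNA-Ser-TGA had at most 0.036% of its reads with a CC tail and none with CCA, so it gave no charged share.

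Among the members themselves, tRNA-Ser-AGA and -CGA formed the less charged side. Each was below tRNA-Ser-GCT, tRNA-Ser-TGA and tRNA-SeC-TCA in 8 of 8 brains, with mean differences of −9.34 to −6.74 points (exact sign-flip p = 0.00781 for each of these 6 pairs, 0.0130 after Benjamini-Hochberg adjustment over the 10 pairs of members). With all end classes the 4 pairs among serine anticodons kept 8 of 8 brains, and the 2 with tRNA-SeC-TCA were at −5.44 (-AGA) and −5.60 points (-CGA), negative in 6 of 8 (exact sign-flip p = 0.0469, adjusted 0.0670). tRNA-Ser-AGA and -CGA differed by 0.36 points, less than their spread (exact sign-flip p = 0.133, adjusted 0.166). tRNA-Ser-GCT was 1.61 points above -TGA, in 6 of 8 brains (exact sign-flip p = 0.0391, adjusted 0.0558), and with all end classes 1.76 points above it in 7 of 8 (exact sign-flip p = 0.0234, adjusted 0.0469). tRNA-SeC-TCA was not separable from -GCT (−0.62 points, -GCT minus -SeC, SD 6.67, exact sign-flip p = 0.805) or from -TGA (−2.24 points, -TGA minus -SeC, SD 7.55, exact sign-flip p = 0.430) at this spread. The order by mean charged share was thus -CGA and -AGA, then -TGA, -GCT and tRNA-SeC-TCA, and no pair showed an age difference that passed the test (smallest exact permutation p = 0.143, adjusted 0.857). With all end classes -GCT and -TGA minus tRNA-SeC-TCA turned to 3.68 and 1.93 points. The place of tRNA-SeC-TCA in this order therefore depended on the denominator.

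In the ranking of 47 nuclear anticodons from the least charged, the means over old brains put -CGA first, -AGA second, -TGA 7th, -GCT 10th and tRNA-SeC-TCA 11th, and those over young brains put them 1st, 2nd, 6th, 8th and 9th. Over single brains tRNA-Ser-GCT and -TGA moved widely, from rank 4 to 29 and from rank 3 to 28, with old M2 at the upper end of both. The other members kept to ranks 1 to 7 for -AGA, 1 to 6 for -CGA and 7 to 13 for tRNA-SeC-TCA. These ranks were not taken with all end classes.

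Taking the median over nuclear anticodons of a brain, the members among them, from each log2 odds of charging removes only a shift common to all of them. The serine tRNAs together were then at −0.99, −0.22, −0.44 and −1.503 in old M1, M2, F1 and F2, against −0.27, −0.86, −0.79 and −1.14 in the young brains. The ages covered each other (old minus young −0.02, exact permutation p = 0.943), and the extremes were both old brains. Each serine anticodon followed the sum of the other 3, with Pearson r of 0.988 to 0.998 over the 8 brains, and tRNA-SeC-TCA had r = 0.559 to the sum of all 4. Of 42 other nuclear anticodons, those most like the serine sum were the threonine tRNAs tRNA-Thr-TGT (r = 0.872), -AGT (0.838) and -CGT (0.763). For tRNA-SeC-TCA they were tRNA-Tyr-GTA (0.656), tRNA-Thr-AGT (0.647) and tRNA-Thr-CGT (0.636). These r describe 8 libraries, and the values of a brain share its library and its median.

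Reads that ended in C or in no base of the tail were kept out of the charged share. For the serine tRNAs the C ends made up 5.13%, 3.73%, 11.3% and 3.78% of reads in old M1, M2, F1 and F2, against 1.56%, 3.79%, 2.25% and 4.13% in the young brains. For tRNA-SeC-TCA they made up 12.7%, 11.5%, 22.2% and 7.79% in old and 5.68%, 9.73%, 6.73% and 10.6% in young brains. Old F1 stood highest for both, and old F2 fell among the young brains for both, as did old M2 for serine. The old minus young difference was 3.06 points for serine (exact permutation p = 0.171) and 5.37 points for selenocysteine (exact permutation p = 0.114). Without old F1 these were 1.28 and 2.47 points, and without old F2 they were 3.79 points (exact permutation p = 0.0857) and 7.29 points (exact permutation p = 0.0286). The other nuclear tRNAs moved alongside, with 14.7 ± 7.86% C ends in old and 7.603 ± 2.07% in young brains.

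Within a brain, the C-ending share was 6.42 ± 2.34 points higher for tRNA-SeC-TCA than for the serine tRNAs, in 8 of 8 brains, and for the serine tRNAs minus the other nuclear tRNAs it was −6.68 ± 3.72 points, negative in 8 of 8 (SD, exact sign-flip p = 0.00781 for both). tRNA-SeC-TCA and the other nuclear tRNAs were not separable in it (−0.26 ± 1.497 points, exact sign-flip p = 0.727). CC ends made up 53.7 ± 7.24% of serine reads in old and 44.4 ± 9.61% in young brains, against 36.4 ± 3.56% in old and 31.5 ± 3.32% in young brains for the other nuclear tRNAs. In these too CC ends outnumbered C ends (14.7% in old and 7.60% in young brains). In an edgeR test of C ends against all others, chosen after the data were seen, 0 of 5 members passed (log2 differences 0.76 to 1.13, adjusted p 0.135 to 0.155, 0 with an unadjusted p below 0.05), beside 0.0% of the 47 anticodons. Of these 47, 4 had an unadjusted p below 0.05. Without old F2, edgeR called all 5, beside 95.7% of the 47.

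**Figure D3:**
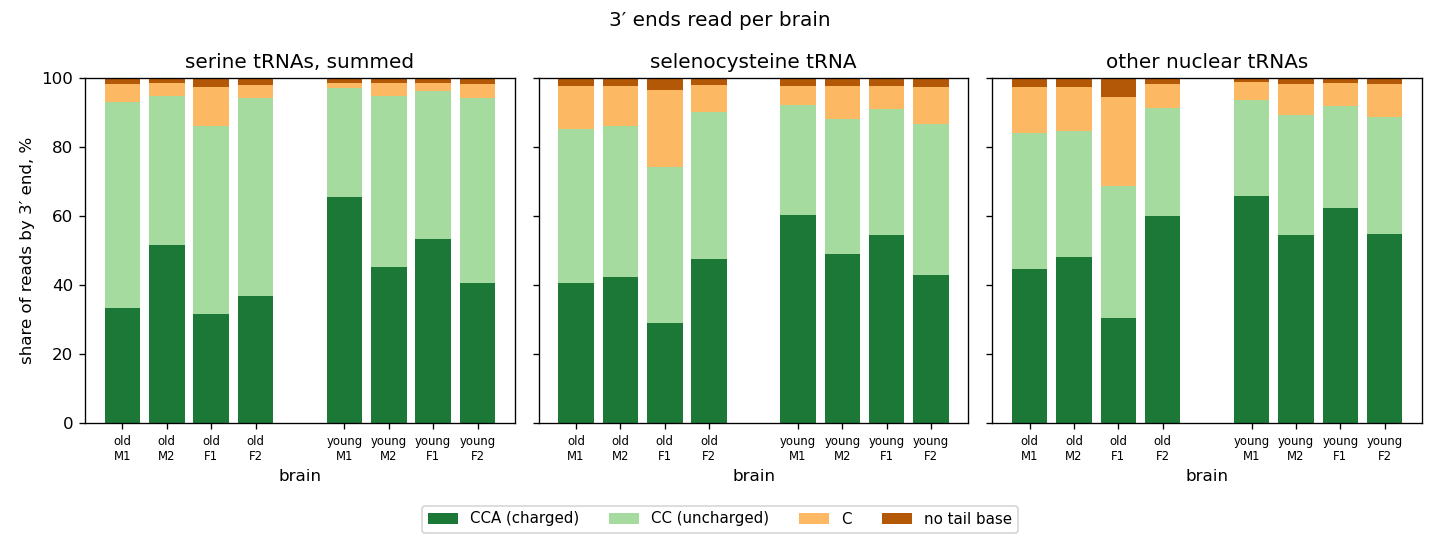
Share of reads in percent by the 3′ end read (CCA, CC, C or no tail base) in each brain, for the serine tRNAs summed, tRNA-SeC-TCA and the other nuclear tRNAs summed. The C class is thin for serine (1.56% to 11.3%), thicker for tRNA-SeC-TCA (5.68% to 22.2%), and largest in old F1 in all 3 panels.

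With all 8 brains, no difference between old and young was shown in the shares of these anticodons among nuclear tRNA reads. Each read stems from 1 tRNA molecule, so shares of reads were compared without a term for length. A change in amount common to all nuclear tRNAs would not show in such shares. The serine tRNAs made up 7.68%, 8.33%, 7.45% and 7.16% of nuclear tRNA reads in old M1, M2, F1 and F2, against 7.62%, 7.48%, 7.20% and 7.72% in young brains. The old values enclosed the young ones, and the means were 7.65 ± 0.496% in old and 7.504 ± 0.227% in young brains (SD, n = 4 each, exact permutation p = 0.714).

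tRNA-SeC-TCA was scarce, at 0.212%, 0.172%, 0.278% and 0.203% of nuclear reads in old and 0.230%, 0.227%, 0.236% and 0.242% in young brains, and ranked 47th of 49 anticodons. Its young values were tight and lay between the old F1 brain and the other 3 old brains (means 0.216 ± 0.0445% in old and 0.234 ± 0.00655% in young, exact permutation p = 0.486). Per 1000 serine reads there were 27.6, 20.6, 37.3 and 28.3 selenocysteine reads in old and 30.2, 30.4, 32.7 and 31.3 in young brains. Among the serine anticodons, -AGA ranked 15th, -GCT 18th, -TGA 31st and -CGA 40th of 49. Divided by their gene numbers the order changed: tRNA-Ser-TGA, with 2 genes, gave 77.2 reads per gene per 10000 nuclear reads in old and 70.9 in young brains, -AGA 45.4 in old and 44.5 in young, -GCT 42.3 in old and 42.6 in young, -CGA 28.3 in old and 28.7 in young, and tRNA-SeC-TCA 21.6 in old and 23.4 in young brains.

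None of the 5 anticodons passed the edgeR test of abundance, beside 6.38% of the 47 tested. An unadjusted p below 0.05 was found for 0 of the 5 in edgeR or DESeq2, beside 9 of the 47 in edgeR and 10 in DESeq2. The estimate furthest from 0 was that of tRNA-Ser-TGA, at 0.12 ± 0.06 on the log2 scale (SE, edgeR adjusted p = 0.256). It made up 1.58%, 1.65%, 1.55% and 1.39% of nuclear reads in old M1, M2, F1 and F2, against 1.41%, 1.44%, 1.43% and 1.40% in young brains. Only old F2 lay outside the higher old values, at the bottom of all 8, and without it edgeR gave 0.17 with an adjusted p of 0.0339, beside 17.0% of the 47 anticodons called. The estimates of the others were 0.03 ± 0.06 for tRNA-Ser-AGA, −0.02 ± 0.07 for -CGA, −0.01 ± 0.08 for -GCT and −0.11 ± 0.14 for tRNA-SeC-TCA (SE, edgeR adjusted p 0.613 to 0.897), and the sign of the first 3 depended on which brains entered.

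**Figure D4:**
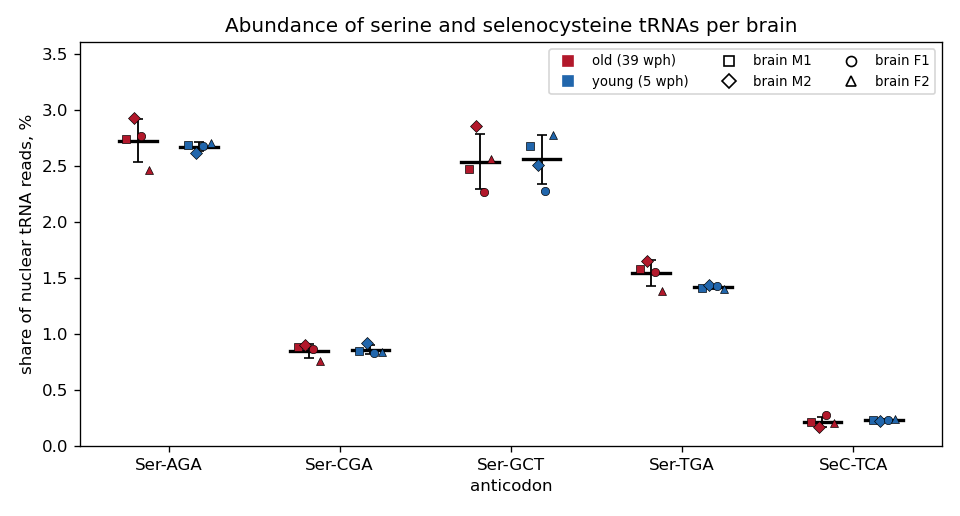
Share of nuclear tRNA reads in percent for each anticodon, with 1 point per brain, old in red on the left of young in blue, and black bars for the mean and SD of 4 brains. tRNA-Ser-AGA and -GCT are the most abundant, tRNA-SeC-TCA the least (0.172% to 0.278%), and 3 of 4 old brains lie above all young brains for tRNA-Ser-TGA.

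tRNA-Ser-AGA and -GCT were each carried almost wholly by 1 of their transcripts. tRNA-Ser-AGA-3 made up 4.88 ± 1.28% of tRNA-Ser-AGA reads in old and 5.79 ± 0.41% in young brains, and tRNA-Ser-GCT-2 2.43 ± 0.13% of tRNA-Ser-GCT reads in old and 2.58 ± 0.14% in young brains (SD, n = 4 each). tRNA-Ser-TGA was divided more evenly, and tRNA-Ser-TGA-2 held 41.0%, 42.4%, 40.6% and 39.5% of its reads in old M1, M2, F1 and F2, against 37.1%, 39.5%, 37.5% and 37.2% in the young brains. The ages did not overlap, although old F2 and young M2 nearly touched, and 16.2% of the 37 nuclear transcripts from anticodons with several transcripts were separated in this way. In an edgeR test of transcript abundance, chosen after the data were seen, tRNA-Ser-TGA-2 was at 0.23 ± 0.08 (SE, log2, adjusted p = 0.117) and tRNA-Ser-TGA-1 at 0.05 ± 0.06 (adjusted p = 0.651). None of the 8 members passed, beside 9.09% of the 66 transcripts, and 1 had an unadjusted p below 0.05, beside 14 of the 66. Without old F2 tRNA-Ser-TGA-2 reached 0.30 (edgeR adjusted p = 0.0169), beside 18.2% called.

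tRNA-Ser-AGA-3 had a larger share of reads without any base of the tail than its sister transcript at both ages. Reads without any base of the tail made up 17.7%, 24.1%, 23.9% and 27.6% of tRNA-Ser-AGA-3 in old M1, M2, F1 and F2, against 15.2%, 15.9%, 15.7% and 15.4% in young brains. All old values lay above all young values, which spanned less than 1 point. For tRNA-Ser-AGA-1 such reads averaged 1.02 ± 0.43% in old and 0.63 ± 0.17% in young brains (SD, n = 4 each). The difference for tRNA-Ser-AGA-3 was 7.77 points (exact permutation p = 0.0286, the smallest possible), and the ages were separated in this way in 36.4% of the 66 nuclear transcripts. The edgeR test of such ends against all others was chosen after the data were seen. It gave 0.71 ± 0.28 for tRNA-Ser-AGA-3 (SE, log2, edgeR adjusted p = 0.0524) and 0.66 ± 0.40 for tRNA-Ser-AGA-1 (edgeR adjusted p = 0.135). The median was 0.84 over the 66 transcripts and 0.21 over the 8 members. In this test 0 of 8 members passed, beside 18.2% of the 66 transcripts. An unadjusted p below 0.05 was found for 1 of the 8, beside 44 of the 66. Without old F2 edgeR called 0 of the 8 members, beside 52 of the 66 transcripts. Without old F1 it called 1 of the 8, tRNA-Ser-AGA-3 (edgeR adjusted p = 0.0440), beside 10 of the 66. The charged share of tRNA-Ser-AGA-3, 38.1 ± 8.51% in old and 49.4 ± 12.6% in young brains, was close to that of tRNA-Ser-AGA-1, 37.1 ± 7.92% in old and 49.6 ± 10.7% in young brains.

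**Figure D5:**
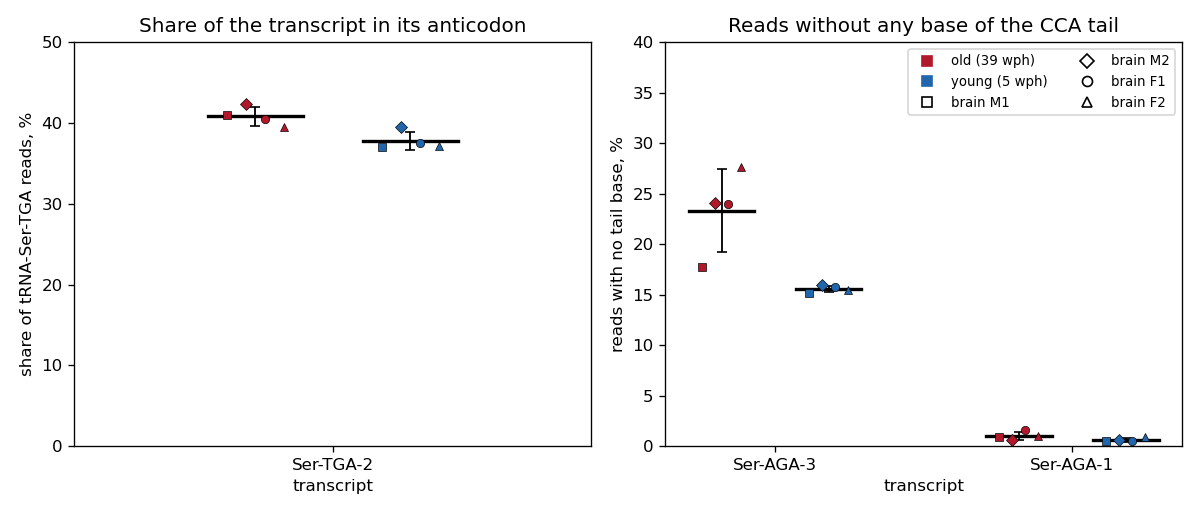
Left, share in percent of tRNA-Ser-TGA reads held by tRNA-Ser-TGA-2. Right, reads in percent without any base of the tail for tRNA-Ser-AGA-3 and tRNA-Ser-AGA-1. Each point is a brain, old in red on the left of young in blue, with black bars for the mean and SD of 4 brains, and the 4 old brains lie above the 4 young brains for tRNA-Ser-TGA-2 (39.5% to 42.4% in old, 37.1% to 39.5% in young) and tRNA-Ser-AGA-3 (17.7% to 27.6% in old, 15.2% to 15.9% in young).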

How the data were processed

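The authors trimmed and demultiplexed reads with cutadapt 3.5 (per the labels) then aligned them and made counts with mim-tRNAseq. They deposited raw counts per anticodon, with the number of genes, and raw counts per transcript and 3′ end. The second table held 99.4% to 99.7% of the members' reads. Per-sample columns left unused: 0. Groups, sex and replicate numbers came from the labels, and no replicates agreed within sampling noise.

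Abundance (10 or more counts in 4 or more samples) and charging (CCA against CC counts with 1 effect per sample, at least 100 reads) were tested across all nuclear anticodons with edgeR 4.0.16 (quasi-likelihood, R 4.3.3) and Benjamini-Hochberg adjustment at 0.05. TMM scaling was used for abundance only. For charging, the CCA plus CC total of a sample was the library size of both its columns, so a shift shared by all tRNAs was kept. Shares were compared by two-sided exact permutation over 70 relabellings and by exact sign-flip over brains (Python 3.11.15, scipy 1.17.1, numpy 2.4.6, pandas 2.3.3, matplotlib 3.10.9). Log2 odds used a pseudocount of 0.5, and Wilson intervals a level of 95%. The edgeR tests were tested on simulated data, with planted differences larger than those of the members. In the simulation of charging each anticodon varied on its own, so a shift shared by the tRNAs of a brain was not covered. Alternatives were DESeq2 1.42.0, limma 3.58.1, other filters, scalings and end classes, a term for sex or for the replicate block, and leaving out each brain. All members and transcripts were named, with leucine and mitochondrial serine tRNAs and the 3 anticodons most like serine and selenocysteine. Members and lists were chosen with earlier results of these data known. Sequences were not analysed here.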

Additional observations from a re-analysis of the deposited data

Results flagged for a closer look

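Of 66 groups of 4 brains tested for a brain far from the others, 5 were picked out, where chance picks about 1 in 20. In old M2 the charged share was far above the other old brains for tRNA-Ser-GCT (59.5%, the other 3 at 40.2% to 42.7%) and for tRNA-Ser-TGA (58.6%, the other 3 at 38.1% to 40.1%). In young F2 the reads of tRNA-SeC-TCA without any base of the tail were far above the other young brains (2.51%, the other 3 at 2.08% to 2.15%). The charged share of tRNA-SeC-TCA minus that of the leucine tRNAs was far below the others of its age in old F2 (−12.9 points) and in young F2 (−9.59 points).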

How the results depend on the processing

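With all end classes in the denominator, serine minus the other nuclear tRNAs within a brain was −7.85 points (exact sign-flip p = 0.0547), its age difference turned to 0.78, and tRNA-Ser-GCT and -TGA minus tRNA-SeC-TCA turned to 3.68 and 1.93 points. Leaving out each brain gave 0 to 1 members called for abundance, 0 to 3 for charging and 0 to 4 transcripts for charging, the highest without old F2 each time. It gave −16.1 to −7.18 points for the age difference in serine charging and 1.28 to 3.81 for its C ends, −13.2 to −7.78 points for selenocysteine charging, 2.47 to 7.29 for its C ends, 3.59 to 6.26 for selenocysteine minus serine within brains, −1.27 to 4.94 for the age difference of that gap, −5.31 to 2.75 for that of serine minus the other nuclear tRNAs, and −2.19 to 0.71 for tRNA-Ser-GCT minus tRNA-SeC-TCA. The abundance estimates ranged over −0.00918 to 0.0763 for tRNA-Ser-AGA, −0.0494 to 0.0337 for -CGA and −0.0747 to 0.0410 for -GCT. The causes were not tested. Of the same-numbered brains only the F2 pair deviated together (r of −0.28, −0.18, −0.17 and 0.79 for M1, M2, F1 and F2), so the numbers were not taken to pair the samples. With the replicate block 0 members were called for abundance or charging (edgeR adjusted p = 0.284 for charging). Beside them, 1 of all 47 nuclear anticodons was called for abundance and 0 of 47 for charging. The paired exact sign-flip p was 0.375 for serine and 0.25 for selenocysteine charging, in a design whose smallest is 0.125. The edgeR test of C ends, the gaps in C ends within brains, and the tests of absent ends, transcript abundance and member pairs were added after seeing the data. The gaps to leucine and mitochondrial serine tRNAs were not among the planned tests, nor was that of selenocysteine to the other nuclear tRNAs. This holds with either denominator, and their p-values were not adjusted. The exact permutation tests of C ends by age were planned. Depth limits tRNA-SeC-TCA most among the anticodons, and tRNA-Ser-GCT-2 (at least 403 reads, up to 4.86 points either side) most among the transcripts.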
